A study of Arabidopsis thaliana with 6 samples.

Results

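The 10 enzyme loci studied here remove or produce reactive oxygen species, and their transcripts were followed in mature leaves of the aneuploid *Arabidopsis thaliana* mutant *flpl1* and of its wild type. They were set by locus identifier, in a list drawn up with earlier results of these data known, and all 10 were among the 32243 genes listed, with 9 of them among the 18638 genes tested. The loci were 3 catalases (*CAT1*, *CAT2*, *CAT3*), 2 ascorbate peroxidases (*APX1*, *APX2*), 4 superoxide dismutases (*CSD1*, *CSD2*, *FSD1*, *MSD1*) and the NADPH oxidase *RBOHD*. RNA was sequenced from fully mature leaves of 3 *flpl1* plants (line C30-81-as6) and 3 Col-0 plants, with 1 library per individual plant. Plants of both groups had the same number of days after germination, which the sources used here do not state for these samples, and neither group received a treatment that the labels name. The *flpl1* line arose in the Col-0 background after carbon ion irradiation and flowers late. It carries an extra copy of Chr. 2 together with rearrangements of Chr. 2 and of other chromosomes, among them a translocation between Chr. 1 and Chr. 2. Its plants were picked by their phenotype and their added DNA content in flow cytometry. A single mutant line with 3 plants stands for the mutant, so the p-values measure the spread between these plants only, and an effect of the extra chromosome cannot be told apart from that of the line's other mutations. Because *flpl1* flowers late, plants of the same age could also differ in stage, and this cannot be told apart from genotype here.

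Superoxide dismutases turn superoxide into hydrogen peroxide, and they are named for their metal: copper and zinc (CSD), iron (FSD) or manganese (MSD). Catalases in peroxisomes and ascorbate peroxidases in the cytosol, plastids and peroxisomes then remove the hydrogen peroxide, the first without and the second with ascorbate as the electron donor. RBOHD makes superoxide on the outer side of the plasma membrane, where it serves as a signal in defence and wounding. In Arabidopsis leaves the copper and iron forms replace each other: when copper is scarce, the transcription factor SPL7 binds GTAC motifs and activates *FSD1* and the genes of miR398, and this microRNA lowers *CSD1*, *CSD2*, their copper chaperone *CCS* and the cytochrome oxidase subunit *COX5B-1*.

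The 6 libraries held 19465078 to 24633070 counted reads, with 20742 to 21161 genes having at least 1 read. Levels are given as FPKM (fragments per kilobase of exon per 1e6 counted reads), which compare genes per length. Log2 fold changes (*flpl1* over Col-0) come from edgeR's quasi-likelihood test on the read counts of all genes, with Benjamini-Hochberg adjusted p, and a gene is said to have risen or fallen when its adjusted p was below 0.05. DEGs had in addition a change of at least 2-fold. In this contrast 30.9% of all tested genes rose and 30.7% fell, while 19.8% were upregulated DEGs and 14.4% downregulated DEGs, so a single passing gene is common here. The excess of upregulated DEGs depended on scaling, since library totals gave 3287 upregulated and 3324 downregulated DEGs. The summed FPKM of 6 leaf markers, such as the Rubisco small subunit gene *RBCS1A*, was 35879, 32886 and 27374 in *flpl1* plants 1, 2 and 3 and 15154, 7664 and 9427 in Col-0 plants 1, 2 and 3, with none of the 6 at 0 in all libraries and 4 of them higher by the test. The sums of 4 root markers overlapped (16.8 to 18.9 in *flpl1* and 15.2 to 20.9 in Col-0, with 1 of 4 at 0 throughout), those of 4 flower markers were 2.40 to 3.04 and 3.52 to 8.54, and 3 of 3 seed markers were at 0 in every library. These sums hide single markers. Of the flower markers *AG* rose (log2 fold change 1.31) while *PI* (−7.13) and *SEP3* (−4.14) fell, and of the root markers *PYK10* fell (−5.01). In bulk leaf RNA, fewer cells of a type and less RNA per cell cannot be told apart.

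Of the 9 tested loci, *CSD2* alone was an upregulated DEG, and 1 locus rose and 2 fell, beside 30.9% and 30.7% of all tested genes (61.6% in either direction, 34.2% being DEGs). No locus was a downregulated DEG in edgeR, where 2 loci were lower at an unadjusted p under 0.05. DESeq2 gave 0 downregulated DEGs and limma on log2(FPKM + 1) gave 2, *CAT1* and *CAT2*. The median log2 fold change of the 9 loci was −0.07, beside 0.00 over all tested genes. The plants of the 2 groups did not overlap at 5 of the 9 loci, against 69.8% of all tested genes. By these counts the loci changed no more often than genes at large, and what set them apart lay in single loci and in the spread between plants.

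**Figure D1:**
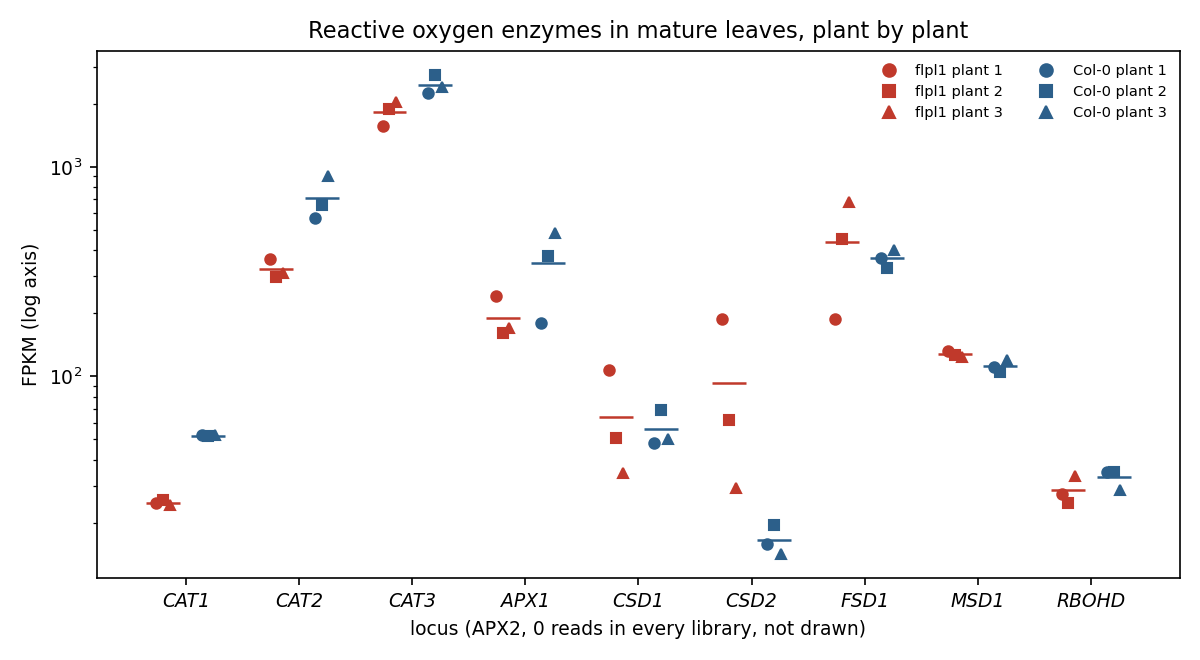
FPKM of 9 loci on a log axis in each of 3 *flpl1* plants (red) and 3 Col-0 plants (blue), with horizontal lines at group means; symbols mark plants 1, 2 and 3. *CSD2* was above 29 FPKM in every *flpl1* plant and below 20 in every Col-0 plant, *CAT1* and *CAT2* lay lower in every *flpl1* plant, and *CSD1* and *FSD1* were spread over the *flpl1* plants only.

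By level, *CAT3* was the most abundant of the 10 transcripts in both groups. In Col-0 it was followed by *CAT2*, *FSD1*, *APX1*, *MSD1*, *CSD1*, *CAT1*, *RBOHD* and *CSD2*, where the ranges of *FSD1* and *APX1* and those of *CSD1* and *CAT1* overlapped between plants. The *flpl1* order was *CAT3*, *FSD1*, *CAT2*, *APX1*, *MSD1*, *CSD2*, *CSD1*, *RBOHD* and *CAT1*, with overlapping ranges for *FSD1* and *CAT2*, for *MSD1* and *CSD2*, for *CSD2* and *CSD1*, and for *RBOHD* and *CAT1*. *CSD2*, the lowest of the detected loci in Col-0, owed its place in *flpl1* to plant 1, above the *MSD1* range, while plants 2 and 3 lay below that range, and *CAT1* was the lowest detected locus there. *APX2* had 0 reads in all 6 libraries.

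*CSD2* (AT2G28190; Chr. 2, 12014498 to 12016569) encodes the plastid copper and zinc superoxide dismutase. It was at 187, 61.7 and 29.4 FPKM in *flpl1* plants 1, 2 and 3 (4359, 1197 and 631 reads) and at 15.8, 19.4 and 14.2 FPKM in Col-0 plants 1, 2 and 3 (376, 437 and 267 reads). Every *flpl1* plant lay above every Col-0 plant, and plant 1 lay far above the other *flpl1* plants. The group means were 92.8 ± 83.4 and 16.5 ± 2.69 FPKM (SD, n = 3 each), and *CSD2* rose by a log2 fold change of 2.66 ± 0.63 (SE; 6.30-fold; adjusted p = 0.00781). Without *flpl1* plant 1 the log2 fold change was 1.63 and still passed. *CSD2* was the only 1 of the 10 loci on Chr. 2, whose 2848 tested genes had a median log2 fold change of 0.55, beside −0.10 on the other 4 nuclear chromosomes. Of those Chr. 2 genes, 264 (9.27%) had a log2 fold change as large as that of *CSD2* or larger, beside 6.11% of all tested genes. The part of the added chromosome, or of the rearrangements of Chr. 2, in the rise of *CSD2* was not tested.

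*CSD1* (AT1G08830; Chr. 1, 2827061 to 2829315), the cytosolic copper and zinc enzyme, was at 107, 50.9 and 34.5 FPKM in *flpl1* plants 1, 2 and 3 and at 48.1, 69.0 and 50.1 FPKM in the Col-0 plants. Plant 1 was again the highest and plant 3 the lowest of all 6, so the groups overlapped. The log2 fold change was 0.37 ± 0.38 (adjusted p = 0.431) and changed sign, to −0.22, without *flpl1* plant 1. The gene shares 211 bp with a neighbour on the opposite strand, and whether reads were counted by strand is not given in the sources used here.

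*FSD1* (AT4G25100; Chr. 4, 12884300 to 12887011), the iron superoxide dismutase that stands in for the copper enzymes, had the opposite order. It was at 188, 452 and 679 FPKM in *flpl1* plants 1, 2 and 3 and at 366, 330 and 399 FPKM in the Col-0 plants. Plant 1 lay below and plants 2 and 3 above all of the Col-0 plants. The log2 fold change over the 3 plants was 0.40 ± 0.40 (adjusted p = 0.415). It was 0.76 (adjusted p = 0.0304) without *flpl1* plant 1, and −0.02 at the lowest among the fits that left out 1 plant.

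These 3 loci differed between *flpl1* plants more than most genes did. The log2 CPM range over the *flpl1* plants was 2.72 for *CSD2*, 1.80 for *FSD1* and 1.68 for *CSD1*, with a median of 0.35 over all tested genes, and only 0.52%, 2.43% and 2.98% of tested genes had wider ranges. In Col-0 the same loci had ranges of 0.37, 0.37 and 0.38, where the median gene had 0.41. *CAT1* and *MSD1*, in contrast, had *flpl1* ranges of 0.16 each, and 82.7% and 82.6% of tested genes had wider ones. Plant 1 was highest and plant 3 lowest by at least 2-fold at 423 tested genes (2.27%), and the reverse held at 582 (3.12%).

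Within each library, *FSD1* FPKM divided by the sum of *CSD1* and *CSD2* FPKM was 0.639, 4.01 and 10.6 in *flpl1* plants 1, 2 and 3 and 5.74, 3.73 and 6.21 in the Col-0 plants. The *flpl1* plants spanned both sides of the Col-0 range. The mean log2 ratio was 1.59 ± 2.06 in *flpl1* and 2.35 ± 0.39 in Col-0 (difference −0.76, two-sided exact permutation p = 0.8, where 3 plants against 3 cannot go below 0.1). The difference changed to 0.35 without *flpl1* plant 1.

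**Figure D2:**
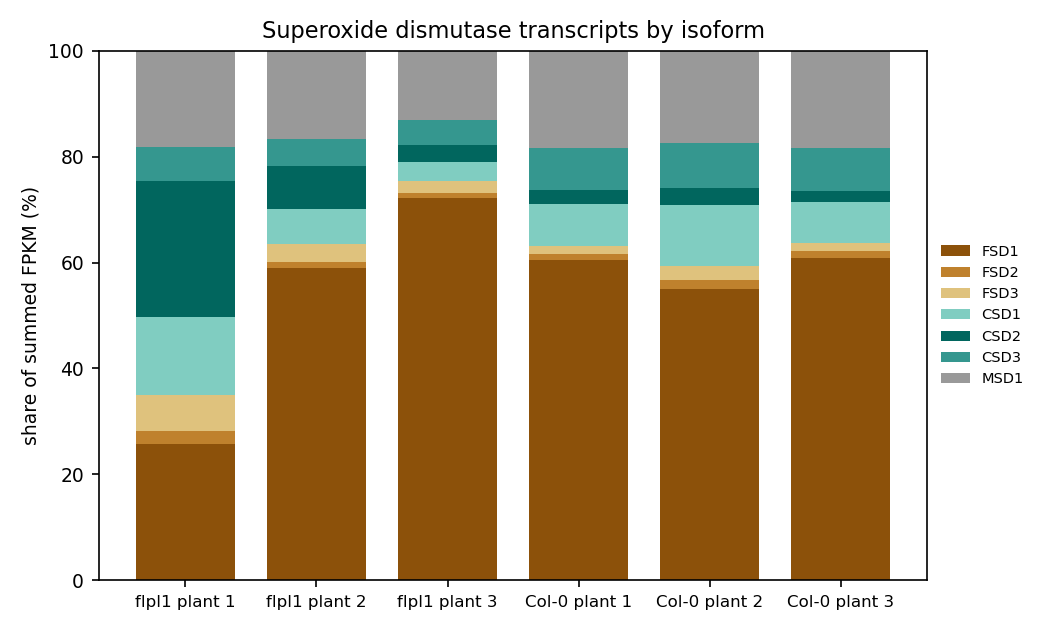
Share of each isoform in the summed FPKM of the superoxide dismutase genes, as stacked bars per plant; *MSD2* had no reads. *FSD1* made up 25.8% in *flpl1* plant 1 and 72.1% in *flpl1* plant 3, while the Col-0 bars lay between 55.1% and 60.9%.

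Over all 8 superoxide dismutase genes the summed FPKM was 729, 766 and 942 in *flpl1* plants 1, 2 and 3 and 606, 600 and 655 in the Col-0 plants. *FSD1* took 25.8%, 59.0% and 72.1% of that sum in the *flpl1* plants and 60.4%, 55.1% and 60.9% in the Col-0 plants. *CSD2* took 25.7%, 8.06% and 3.12% in the *flpl1* plants, against 2.60%, 3.24% and 2.16% in the Col-0 plants. In plant 1 the transcripts of *FSD1* and *CSD2* were thus nearly equal per length, whereas in the other 5 plants *FSD1* was the leading form by far.

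Of 4 further tested genes, the family's other members and the chaperone *CCS*, 1 rose and 0 fell, beside 30.9% and 30.7% of all tested genes. None fell at an unadjusted p under 0.05 or in DESeq2, and the median log2 fold change was 0.59. Below, this list with *CCS* is called the other superoxide dismutases. *FSD3*, an iron enzyme of the plastid nucleoids, rose from 9.77, 15.0 and 11.0 FPKM in Col-0 plants 1, 2 and 3 to 49.2, 26.8 and 20.7 FPKM in the *flpl1* plants (log2 fold change 1.60 ± 0.33, adjusted p = 0.00402). It was highest in plant 1 as well, and the groups did not overlap. *FSD2*, its plastid partner, had a log2 fold change of 0.69 ± 0.31 (adjusted p = 0.0869), and with 1 plant left out it ran from 0.25 (adjusted p = 0.303, without *flpl1* plant 1) to 0.90 (adjusted p = 0.0459, without *flpl1* plant 2). Peroxisomal *CSD3* was at 39.6 to 48.0 FPKM in *flpl1* and 48.5 to 53.2 FPKM in Col-0 (log2 fold change −0.06 ± 0.11, adjusted p = 0.687). It overlaps a neighbour on the opposite strand by 142 bp. *CCS*, which loads copper into the CSD enzymes, was at 34.9, 18.8 and 14.5 FPKM in *flpl1* plants 1, 2 and 3 and at 19.3, 18.9 and 16.0 FPKM in Col-0 (0.48 ± 0.32, adjusted p = 0.218). Its order over the *flpl1* plants was that of *CSD1* and *CSD2*.

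*MSD1* (AT3G10920; Chr. 3, 3417954 to 3419853), the mitochondrial manganese enzyme, was at 132, 127 and 123 FPKM in the *flpl1* plants and at 111, 104 and 120 FPKM in the Col-0 plants. All *flpl1* plants were higher, by little. The log2 fold change was 0.33 ± 0.13 and missed the threshold (adjusted p = 0.0562), which 4 of the 16 alternative fits passed, among them that without Col-0 plant 1 (0.38, adjusted p = 0.0428).

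The sequences of miR398 and of its known targets *CSD1*, *CSD2*, *CCS* and *COX5B-1* are shown next, so that their pairing can be read beside the values. The miR398 forms share the seed (bases 2 to 8, in capitals), miR398b and miR398c are identical, and miR398a differs from them at the last base. They are written 5′ to 3′ from RefSeq (TAIR10.1) at chr2:1041012-1041032, chr5:4691107-4691127 and chr5:4694778-4694798, all on the plus strand.
ath-miR398a-3p: uGUGUUCUcaggucaccccuu
ath-miR398b-3p: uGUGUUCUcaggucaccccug
ath-miR398c-3p: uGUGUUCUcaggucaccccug
The transcripts were searched for the stretch of 21 bases that pairs best with miR398b and miR398c, without gaps. A site that pairs through a bulged base is scored too low by this search, so a low score does not speak against a site. Capitals mark Watson-Crick pairs, and G:U pairs and mismatches are in lower case. The right end of each stretch faces the seed, where *CSD1* and *CCS* had Watson-Crick pairs at 6 of its 7 bases, *COX5B-1* at 4 and *CSD2* at 3.
CSD1: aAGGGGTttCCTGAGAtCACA
CSD2: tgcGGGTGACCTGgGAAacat
CCS: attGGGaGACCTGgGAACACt
COX5B-1: aAGGtGTGACCTGAGAAtcac
The *CSD1* stretch spans an intron in the 5′ UTR (chr1:2827177-2827685, plus strand) and had 17 pairs, a score reached by 9 of 27440 genes searched. *COX5B-1* held its stretch in the 5′ UTR (chr3:5299204-5299224, plus strand) and *CCS* in the coding sequence (chr1:4267521-4267541, minus strand), each with 15 pairs and a score that 1.43% of genes reached. In *CSD2* the stretch lay in the coding sequence (chr2:12015572-12015592, plus strand) with 13 pairs, and 11.5% of genes scored as high, among them *FSD1* with 14 pairs and *RBOHD* with 13. A match is a description of the letters and not evidence of cleavage. The miR398 genes themselves, looked up by locus identifier, were not among the genes listed, so their levels could not be analysed here.

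GTAC, the core of the motif that SPL7 binds and the same on both strands, was searched from 250 bases before to 50 bases after the start of each gene, and 39.0% of 27443 such promoters held it. Starts for motifs are those of RefSeq. For *CAT2*, *CAT3*, *APX1*, *CSD2* and *RBOHD*, among others, they lie upstream of the deposited starts given with the loci. *FSD1* had 1 match, *CAT3* and *APX2* 1 each, *CAT2*, *CSD1* and *RBOHD* 2 each, and *CAT1*, *APX1*, *CSD2* and *MSD1* none. The metal transporter gene *YSL2*, which had the plant order of *FSD1* and was named after its values were seen, had 3 matches, and 1.99% of promoters had 3 or more. Of the 12 tested copper genes, 4 held a match, and among those without one were *FRO4*, *COPT1* and *COX5B-1*. The 250 bases before both starts follow, with GTAC in capitals (TAIR10.1, RefSeq), at chr4:12887012-12887261 on the minus strand for *FSD1* and chr5:8323645-8323894 on the plus strand for *YSL2*. No other gene lies in these stretches.
FSD1 upstream: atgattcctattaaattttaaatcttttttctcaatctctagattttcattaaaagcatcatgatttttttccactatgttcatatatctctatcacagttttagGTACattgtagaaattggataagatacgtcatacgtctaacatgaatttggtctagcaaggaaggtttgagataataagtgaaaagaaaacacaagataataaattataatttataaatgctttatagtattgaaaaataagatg
YSL2 upstream: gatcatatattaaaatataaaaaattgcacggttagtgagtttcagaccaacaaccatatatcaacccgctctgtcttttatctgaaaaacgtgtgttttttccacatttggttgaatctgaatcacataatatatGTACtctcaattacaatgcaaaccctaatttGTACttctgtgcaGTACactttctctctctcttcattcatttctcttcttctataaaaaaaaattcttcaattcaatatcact
The *FSD1* match lies at −145 from the gene's start, and the *YSL2* matches lie at −114, −83 and −70.

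Of 20 copper genes, 16 were listed and 12 tested, those not listed being the miR398 genes and *MIR408*. By the test 6 rose and 5 fell, beside 30.9% and 30.7% of all tested genes. Of the 12, 11 did not overlap between groups, beside 69.8% of all tested genes (median log2 fold change 0.23). The regulator *SPL7* was at 7.52 to 8.40 FPKM in *flpl1* and at 7.83, 13.3 and 13.3 FPKM in Col-0 plants 1, 2 and 3. Its log2 fold change was −0.36 ± 0.17 (adjusted p = 0.104), and of the alternatives it passed in that without Col-0 plant 1 only (−0.53, adjusted p = 0.00507), being −0.25 without Col-0 plant 3. *COX5B-1* rose from 20.1, 31.3 and 24.4 FPKM in the Col-0 plants, of which plant 2 lay above *flpl1* plant 3, to 48.9, 40.6 and 29.7 FPKM in *flpl1* plants 1, 2 and 3 (0.82 ± 0.21, adjusted p = 0.0117). In TMM-scaled CPM the groups did not overlap.

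*COPT2*, a plasma membrane copper transporter, was at 0.59, 4.16 and 13.9 FPKM in *flpl1* plants 1, 2 and 3 and at 46.5, 49.4 and 66.0 FPKM in the Col-0 plants. It fell by 2.99 ± 0.77 on the log2 scale (adjusted p = 0.0117) but missed the threshold without *flpl1* plant 2 (adjusted p = 0.0503). *FRO4*, a cell surface copper reductase, fell by 2.68 ± 0.33 (adjusted p = 0.000475), from 18.03, 9.89 and 9.29 FPKM in the Col-0 plants to 1.97, 1.64 and 1.74 FPKM in the *flpl1* plants. The laccases *LAC4* and *LAC17*, copper oxidases of lignin formation, rose by log2 fold changes of 4.22 ± 0.37 (adjusted p = 0.000138) and 3.86 ± 0.66 (adjusted p = 0.00188). Neither laccase had the plant order of *CSD2*, since both were lowest in *flpl1* plant 1.

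A further pair of genes was named after their values were seen, for their order over the *flpl1* plants. The copper chaperone *CCH* was at 89.4, 276 and 427 FPKM in *flpl1* plants 1, 2 and 3 and at 639, 695 and 841 FPKM in Col-0, and *YSL2* was at 1.15, 4.13 and 12.2 FPKM in *flpl1* and at 22.6, 22.5 and 36.0 FPKM in Col-0. Both fell (*CCH* by 1.32 ± 0.48, adjusted p = 0.0439; *YSL2* by 2.09 ± 0.69, adjusted p = 0.0312), and both lost the threshold without *flpl1* plant 2 (adjusted p = 0.0988 and 0.102) and without Col-0 plant 3 (0.105 and 0.0821), *CCH* also without Col-0 plant 1 (0.0565) or 2 (0.0652), with genes of at least 5 FPKM (0.0591) and with centring outside Chr. 2 (0.0558). Neither passed the test against 2-fold (0.378 and 0.161), and *YSL2* shares 99 bp with an opposite gene. Without *flpl1* plant 2 the count of copper genes that fell went from 5 to 2, and without Col-0 plant 3 it went to 3.

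Read together by plant, *flpl1* plant 1 had the highest *CSD1*, *CSD2*, *CCS* and *COX5B-1* and the lowest *FSD1*, *CCH*, *YSL2* and *COPT2* of all 6 plants. Plant 3 had the lowest *CSD1*, *CSD2*, *CCS* and *COX5B-1* and the highest *FSD1*, *CCH*, *YSL2* and *COPT2* of the *flpl1* plants. *CCH* and *YSL2* were chosen for this order and lend it no support. *COPT2*, named for its fold change, was set in this reading after its values were seen and lends none either. Of the 12 tested copper genes, 1 (*COX5B-1*) had the order of *CSD2*, 4 (*COPT1*, *COPT2*, *YSL2*, *CCH*) had that of *FSD1*, and 7, among them *FRO4*, *SPL7*, *PETE2* and the laccases, had another. These orders asked for no 2-fold range, and their share over all tested genes was not counted, so no excess is read from them. *CSD2* was above and *CCH*, *YSL2* and *COPT2* were below Col-0 in all 3 plants. The leaf marker sums had the order of *CSD2* in the *flpl1* plants, and their part in this order was not tested. Copper was not measured in these leaves, and the cause of the spread was not tested.

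**Figure D3:**
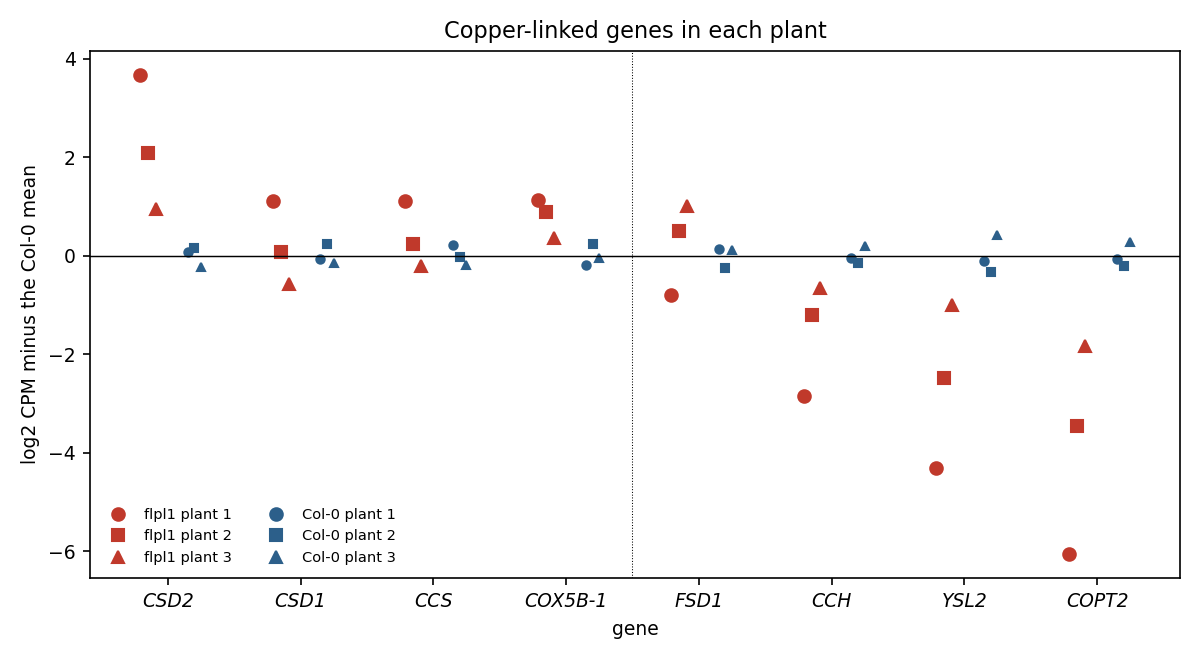
Log2 CPM minus the mean of the Col-0 plants for 4 targets of miR398 (left of the dotted line) and for *FSD1* and 3 copper list genes with its plant order (right; picked after their values were seen), in 3 *flpl1* plants (red) and 3 Col-0 plants (blue). *CSD2* ran from 3.67 in plant 1 to 0.95 in plant 3, *FSD1* was lowest in plant 1 at −0.79, and *COPT2* ran from −6.05 to −1.83, while the Col-0 plants stayed within 0.43 of their mean.

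Among the catalases, *CAT1* and *CAT2* fell while *CAT3*, the most abundant of the 3, did not pass the test. *CAT2* (AT4G35090; Chr. 4, 16700342 to 16703325) encodes the main leaf enzyme of photorespiratory hydrogen peroxide removal. It was at 365, 297 and 311 FPKM in *flpl1* plants 1, 2 and 3 and at 573, 658 and 904 FPKM in the Col-0 plants. All *flpl1* plants were lower. *CAT2* fell by 0.98 ± 0.22 on the log2 scale (1.97-fold lower; adjusted p = 0.00612), just short of the 2-fold asked of a DEG, and it became one without *flpl1* plant 1 (−1.08), Col-0 plant 1 (−1.07) or Col-0 plant 2 (−1.09). It was smaller without *flpl1* plant 2 (−0.93), *flpl1* plant 3 (−0.93) or Col-0 plant 3 (−0.79), and it passed the adjusted p in each of these fits.

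*CAT1* (AT1G20630; Chr. 1, 7146636 to 7149977), in Arabidopsis mostly a pollen and seed enzyme that also responds to stress, was at 24.9, 25.6 and 24.3 FPKM in *flpl1* and at 52.4, 51.9 and 52.1 FPKM in Col-0. In FPKM the plants within each group were nearly equal and the groups far apart. In TMM-scaled log2 CPM the ranges were 0.16 in *flpl1* and 0.24 in Col-0. *CAT1* fell by 0.92 ± 0.11 (1.89-fold lower; adjusted p = 0.000485). Its neighbour *CAT3* (AT1G20620; Chr. 1, 7143067 to 7146540), the catalase of later leaf life with evening expression, was at 1567, 1885 and 2033 FPKM in *flpl1* and at 2242, 2757 and 2400 FPKM in Col-0. Although every *flpl1* plant was lower, the log2 fold change of −0.28 ± 0.23 did not pass (adjusted p = 0.309). The evening element AAAATATCT lies at −79 from the RefSeq start of *CAT3*, and 2.8% of promoters searched on both strands hold it. The hour of sampling is not given in the sources used here.

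The 3 catalases summed to 1957, 2207 and 2368 FPKM in *flpl1* plants 1, 2 and 3 and to 2868, 3467 and 3356 FPKM in the Col-0 plants. The means were 2177 ± 207 and 3230 ± 319 FPKM (two-sided exact permutation p = 0.1, the smallest that 3 against 3 allows), and all *flpl1* plants were lower. FPKM are scaled by library totals only. For *CAT3*, the largest part of the sum, *flpl1* over Col-0 was 0.741 by mean FPKM and 0.823 by the TMM-scaled fit. The size of the difference in the sum therefore depends on scaling. *CAT2* FPKM over *CAT3* FPKM was 0.233, 0.158 and 0.153 in the *flpl1* plants, against 0.256, 0.239 and 0.377 in the Col-0 plants. The groups did not overlap, by a narrow gap between *flpl1* plant 1 and Col-0 plant 2 (log2 difference −0.68, exact p = 0.1).

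Among 10 regulators of catalase and of *APX2*, 1 rose and 4 fell, beside 30.9% and 30.7% of all tested genes. The other 5 did not pass, and the median log2 fold change of the 10 was −0.66. Without Col-0 plant 2 the number that rose was 2. *HSFA8*, a heat shock factor that moves to the nucleus under oxidative stress, fell from 33.7, 39.5 and 30.3 FPKM in Col-0 to 4.45, 4.08 and 3.65 FPKM in *flpl1* (log2 fold change −2.93 ± 0.15, adjusted p = 6.58e-05). *HSFA1B*, a heat shock factor that activates *APX2*, fell by 1.14 ± 0.12 (adjusted p = 0.000231), and it overlaps an opposite gene by 44 bp. *NCA1*, a chaperone that holds catalases active, was named after its values were seen. It was at 60.6, 63.0 and 66.6 FPKM in *flpl1* and at 112, 118 and 115 FPKM in Col-0 (−0.72 ± 0.11, adjusted p = 0.0013), and so fell along with *CAT1* and *CAT2*.

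*APX1* (AT1G07890; Chr. 1, 2437330 to 2439665) encodes the main cytosolic ascorbate peroxidase. It was at 242, 160 and 170 FPKM in *flpl1* plants 1, 2 and 3 and at 179, 374 and 486 FPKM in Col-0 plants 1, 2 and 3. Col-0 plant 1 lay among the *flpl1* plants, well below the other Col-0 plants. The log2 fold change was −0.69 ± 0.33 and did not pass (adjusted p = 0.107), whereas without Col-0 plant 1 it was −0.97 and passed (adjusted p = 0.00962). Without Col-0 plant 3 it was −0.37 (adjusted p = 0.359), so the value depended on the Col-0 plant left out in both directions. At a Col-0 log2 CPM range of 1.29, *APX1* was the most spread of the 9 loci within the wild type, and 9.43% of tested genes had a wider Col-0 range. Col-0 plant 1 also had the highest leaf marker sum of its group, and the part of this in its *APX1* level was not tested.

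*APX2* (AT3G09640; Chr. 3, 2956156 to 2958327), a cytosolic form induced by heat and strong light, had 0 reads in every library. The heat shock element core GAANNTTC lies at −61 from the RefSeq start of *APX2* and at −116 from that of *APX1*, and 11.6% of promoters hold it. No *APX2* expression was detectable at this depth. A count of 0 allows up to 3 reads, or 0.145 FPKM in the shallowest library, which covers counting error only.

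All 6 other ascorbate peroxidases passed the test, beside 61.6% of all tested genes. Of them 4 were higher and 2 lower (median log2 fold change 0.83), beside 30.9% and 30.7%. *APX4*, a plastid thylakoid relative, rose from 142, 45.5 and 74.9 FPKM in Col-0 plants 1, 2 and 3 to 326, 277 and 221 FPKM in *flpl1* (1.76 ± 0.44, adjusted p = 0.0106), and shares 85 bp with an opposite gene. *APX5*, of the peroxisomal type, rose from 0.25, 0.31 and 0.53 FPKM to 2.65, 2.97 and 2.13 FPKM (2.99 ± 0.39, adjusted p = 0.000567) and stayed low in both groups. Among these 6 genes *APX5* was the scarcest.

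In the ascorbate and glutathione list, all 17 genes were tested, of which 5 rose and 5 fell, beside 30.9% and 30.7% of all tested genes. The other 7 did not pass (median of the list −0.16). *VTC2*, the rate-limiting step of ascorbate synthesis, fell from 479, 540 and 635 FPKM in Col-0 to 143, 153 and 187 FPKM in *flpl1* (−1.63 ± 0.18, adjusted p = 0.000301). *MDAR6*, the organelle enzyme that recycles ascorbate, rose by 1.56 ± 0.21 (adjusted p = 0.000716), and cytosolic glutathione reductase *GR1* fell by 1.01 ± 0.22 (adjusted p = 0.0059). Without *flpl1* plant 1, *flpl1* plant 2, Col-0 plant 2 or Col-0 plant 3, 3 genes of the list rose.

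Of 15 tested thiol peroxidases, 4 rose and 4 fell, beside 30.9% and 30.7% of all tested genes. The other 7 did not pass (median of the list −0.17). *PRXQ*, a thylakoid peroxiredoxin, rose from 107, 75.3 and 74.6 FPKM in Col-0 to 390, 296 and 219 FPKM in *flpl1* (1.95 ± 0.29, adjusted p = 0.001). *GPX6*, a glutathione peroxidase type enzyme, fell from 247, 271 and 286 FPKM to 58.7, 51.0 and 54.8 FPKM (−2.14 ± 0.12, adjusted p = 6.96e-05), and overlaps an opposite gene by 28 bp. The cytosolic type peroxiredoxins *PRXIID* and *PRXIIC* fell by 4.05 ± 0.73 (adjusted p = 0.00233) and 2.24 ± 0.38 (adjusted p = 0.00185) from levels of only 2.22 to 4.70 FPKM, and 359 bp of *PRXIIC* lie within an opposite gene.

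**Figure D4:**
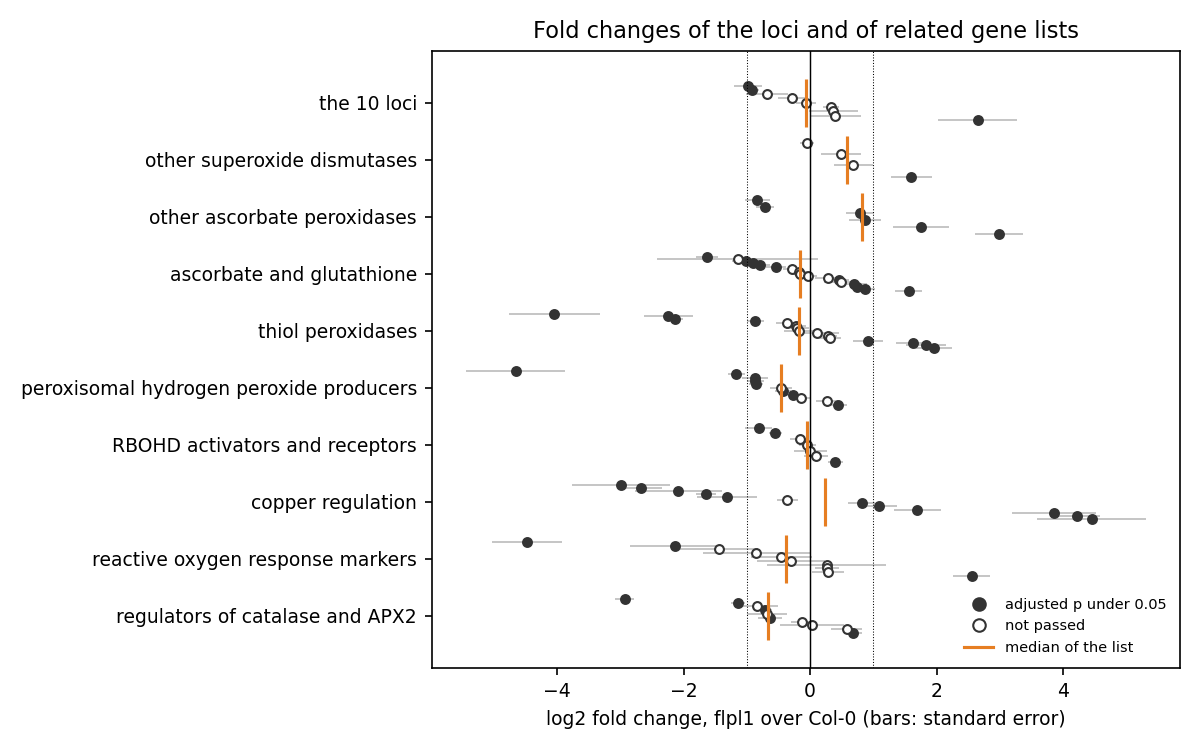
Log2 fold change (*flpl1* over Col-0) with its standard error for every tested gene of the 10 loci and of 9 related lists; filled points passed an adjusted p of 0.05, orange lines are list medians and dotted lines mark 2-fold. The median of the 10 loci was −0.07, the ascorbate peroxidase list lay highest at 0.83 and the list of catalase and *APX2* regulators lowest at −0.66.

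On the producing side, *RBOHD* (AT5G47910; Chr. 5, 19397443 to 19402061) was at 27.4, 24.7 and 33.4 FPKM in *flpl1* plants 1, 2 and 3 and at 35.0, 35.0 and 28.6 FPKM in the Col-0 plants. The groups overlapped, and the log2 fold change was −0.07 ± 0.16 (adjusted p = 0.73). In none of the 16 alternative fits did it pass. A W-box core, TTGAC, lies at −26 from its RefSeq start, which is upstream of the deposited start given above, and 50.5% of promoters hold this core. *RBOHF*, the other NADPH oxidase with enough reads to test, was at 4.54 to 5.47 FPKM in *flpl1* and 5.79 to 7.27 FPKM in Col-0 (−0.21 ± 0.13, adjusted p = 0.202). The family's other 8 genes had 0 to 28 reads per library, and 2 of them had none in any library.

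Of 7 tested kinases and receptors that act on RBOHD, 1 rose and 2 fell, beside 30.9% and 30.7% of all tested genes. The other 4 did not pass, and none of the 7 changed by 2-fold (median −0.04). The receptors *FLS2* and *CERK1* and the kinases *BIK1* and *CPK5* were those that did not pass. None rose without *flpl1* plant 3 or Col-0 plant 2, and 1 fell without *flpl1* plant 2.

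Enzymes that release hydrogen peroxide in peroxisomes, the compartment of the catalases, were lower in *flpl1* more often than higher. Of 11 tested genes 7 fell, 1 rose and 3 did not pass (median −0.46), beside 30.7% and 30.9% of all genes. *HAOX1*, a long-chain hydroxy acid oxidase, fell from 13.5, 19.1 and 18.1 FPKM in Col-0 to 6.85, 5.88 and 7.53 FPKM in *flpl1* (−1.17 ± 0.14, adjusted p = 0.00042). The photorespiratory glycolate oxidase *GOX1*, named after its values were seen, was at 526, 585 and 655 FPKM in *flpl1* and 797, 941 and 950 FPKM in Col-0 (−0.46 ± 0.17, adjusted p = 0.0512). The number that fell was 5 to 7 with any 1 plant left out, while none rose without *flpl1* plant 2 or 3 and without Col-0 plant 2 or 3.

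Of 10 tested markers of the reactive oxygen response, 1 rose and 2 fell, beside 30.9% and 30.7% of all tested genes. The other 7 did not pass (median of the list −0.38). *UPOX*, a mitochondrial protein induced by oxidative stress, rose from 7.20, 11.6 and 9.87 FPKM in Col-0 to 55.2, 29.9 and 66.0 FPKM in *flpl1* (2.55 ± 0.29, adjusted p = 0.000338). It also lies on Chr. 2. *AT1G05340*, used as a hydrogen peroxide marker, fell from 17.0, 5.75 and 9.83 FPKM to 0.35, 0.42 and 0.57 FPKM (−4.48 ± 0.55, adjusted p = 0.000462). The zinc finger gene *ZAT10* was at 12.6, 3.58 and 2.70 FPKM in *flpl1* and 31.5, 52.3 and 9.86 FPKM in Col-0, overlapping between groups, and fell by 2.13 ± 0.73 (adjusted p = 0.0351). That call was lost without *flpl1* plant 2 (adjusted p = 0.111) or 3 (0.0944) and without Col-0 plant 1 (0.055) or 2 (0.103). Without *flpl1* plant 1, 4 markers fell.

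The genes most like 4 of the loci were sought by the Euclidean distance of log2 CPM, relative to the Col-0 mean, over the 6 libraries. For *FSD1* the nearest were *DMR6* (distance 0.41), a salicylic acid hydroxylase, *RLP38* (0.42) and *MPK11* (0.44). *CAT2* was followed most closely by the receptor kinase gene *SERK2* (0.14), by AT3G03720 (0.17) and by *AER* (0.18), an enzyme that detoxifies reactive carbonyls. AT3G03720 carries the symbol CAT4 but encodes a cationic amino acid transporter and no catalase. Nearest to *APX1* were *MPK19*, AT4G12240 and the plastid gene ATCG00500 (0.44, 0.44 and 0.45), all of them low in Col-0 plant 1. *RBOHD* was closest to AT1G80550 (0.16), *SNM1* (0.16) and the cell wall peroxidase gene *PRXCB* (0.17).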

How the data were processed

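The authors trimmed paired reads with Cutadapt 1.9.1, used HISAT2 for alignment to TAIR10 and took gene counts from HTSeq 0.6.1 (submitters' processing notes and the study's methods). They deposited, for each library, raw read counts and FPKM, which equal count per kilobase of exon and 1e6 counted reads within 0.01. Counts gave the fold changes: genes were filtered with filterByExpr, scaled with TMM and fitted with edgeR 4.0.16 (glmQLFit, glmQLFTest, group only, R 4.3.3) with Benjamini-Hochberg adjustment. DEGs followed the study's thresholds (adjusted p under 0.05, at least 2-fold). DESeq2 1.42.0, limma 3.58.1 on log2(FPKM + 1) and log2(FPKM + 0.1), other filters and scalings, a test against 2-fold and leaving out plants were alternatives, 16 in all. Ratios used exact permutation tests (scipy 1.17.1). The edgeR, DESeq2 and limma fits were tested on simulated counts in which few genes changed, equally in both directions. That setting differs from these data, so it cannot vouch for the fits here. The biological coefficient of variation was 22.2%.

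Genes named from each list were at most the 4 DEGs with the largest change and at least 1 FPKM in each library of the higher group, with *CCS*, *SPL7*, *COX5B-1* and every other tested superoxide dismutase and NADPH oxidase. The loci and lists were chosen with earlier results of these data known. Gene positions come from the deposited tables, and sequences with their positions from RefSeq TAIR10.1, whose chromosomes have the same lengths. Motif positions are counted from the RefSeq gene starts. Near copies were searched with BLAST 2.17.0 (at least 95% over 100 bp): *FSD2* shares 185 bp with AT4G00651, and *ACX3*, *DHAR1* and *EFR* of the lists have copies too. The deposited annotation columns beside location terms were not used.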

Additional observations from a re-analysis of the deposited data

How the results depend on the processing

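The rise of *CSD2* passed in all 16 alternatives (log2 fold change 1.63 to 3.09), the falls of *CAT1* and *CAT2* in 15 each, all but the test against 2-fold, and *CAT3*, *CSD1* and *RBOHD* in none. The main limits were 3 plants per group, 1 mutant line and counting whose use of strand is not given in the sources used here. *APX2* and the scarce NADPH oxidases had too few reads to be tested.

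Of the 10 loci, 2 were downregulated DEGs with library totals alone and with limma at either pseudocount, where the median of all genes moved by −0.15, −0.12 and −0.14. The number that rose was 2 with genes of at least 5 FPKM, with centring on genes outside Chr. 2 and with DESeq2, *MSD1* being added, and 0 fell by the test against 2-fold. Of all DEGs 58.0% were upregulated, and 49.1% (limma at a pseudocount of 1) to 63.3% (centring outside Chr. 2) across the alternatives. Over all genes, 2158 upregulated and 1587 downregulated DEGs were found with at least 5 FPKM, and 2304 and 1467 by the test against 2-fold. That test gave 0 higher in the other superoxide dismutases, 1 higher and 0 lower in the other ascorbate peroxidases, 1 and 1 in the ascorbate and glutathione list, 0 and 0 in the RBOHD activators, 0 and 1 in the peroxisomal producers, 3 and 2 in the copper list, 1 lower in the response markers, and 0 and 1 in the regulators. With at least 5 FPKM, 2 thiol peroxidases and 1 RBOHD activator were lower and 3 copper genes higher, fewer genes being tested. With library totals or limma, 0 RBOHD activators and 0 peroxisomal producers were higher, and with centring outside Chr. 2 the regulators had 2 higher. As shares of counts in place of FPKM, *FSD1* in Col-0 was 69.2% (58.8% by FPKM) and *CSD2* 2.05% (2.67%). The cause of these shifts was not tested unless named.

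With 1 plant left out, the log2 difference of *FSD1* over *CSD1* plus *CSD2* ran from −1.67 to 0.35, its highest value (exact p = 0.6) being a change of sign without *flpl1* plant 1, and that of *CAT2* over *CAT3* from −0.87 to −0.47. *MDHAR3*, at −1.15, went to 2.55 without Col-0 plant 1 and to −1.70 without Col-0 plant 2. The loci had 0 to 1 downregulated DEGs, 1 to 2 that rose and 2 to 3 that fell, and all genes 3498 to 4092 upregulated and 2506 to 2922 downregulated DEGs. Higher counts were 1 to 2 (other superoxide dismutases), 3 to 4 (other ascorbate peroxidases), 3 to 7 (ascorbate and glutathione), 4 to 5 (thiol peroxidases), 0 to 1 (RBOHD activators, and likewise peroxisomal producers), 6 (copper) and 1 to 2 (regulators). Lower counts were 4 to 5 (ascorbate and glutathione), 1 to 2 (RBOHD activators), 5 to 7 (peroxisomal producers), 2 to 5 (copper), 1 to 4 (response markers) and 3 to 4 (regulators). The share of *FSD1* was 42.4% to 65.6% in *flpl1* and 57.8% to 60.7% in Col-0, and that of *CSD2* 5.59% to 16.9% and 2.38% to 2.92%. The catalase sum, a value left out by plant only after the data were seen, differed by −1234 to −935 FPKM.

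The plant numbers showed no pairing of the samples: same-numbered plants had correlations of deviations of 0.03, −0.12 and 0.10, and other pairs −0.14 to 0.14. With 3 plants per group this check cannot tell whether a batch was shared. With the number as a block, 3656 genes were upregulated and 2623 downregulated DEGs, 1 of the loci was upregulated and 0 downregulated, the peroxisomal producers had 0 higher, and the paired log2 differences of −0.76 and −0.68 had exact p = 1.0 and 0.25.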

Other observations

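In lists sorted by compartment, the enzymes that handle reactive oxygen species differed in direction between plastids and peroxisomes. These lists, and their alternatives, were drawn up after the values were seen, so their counts carry no test. Of 15 plastid genes, among them *CSD2*, *FSD3*, *APX4* and *PRXQ*, 11 rose and 0 fell (median log2 fold change 0.92), and with 1 plant left out 9 to 12 rose. Of 19 peroxisomal genes, among them *CAT1*, *CAT2* and *HAOX1*, 2 rose and 11 fell (median −0.46), and 9 to 11 fell with 1 plant left out. Over all tested genes, 30.9% rose and 30.7% fell. Among 1553 tested genes with a chloroplast term in the deposited annotation, 634 rose and 299 fell (median 0.32), and among 226 with a peroxisome term, 66 rose and 75 fell (median −0.15). The peroxisome term genes thus rose and fell at shares close to those of all tested genes. The leaf marker sums, made of plastid proteins for photosynthesis, were also higher in every *flpl1* plant, and the part of this in the plastid counts was not tested.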
